A study of Homo sapiens with 9 samples.

Results

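SPP1, GPNMB, ACP5, CSF1, KCP, SDS, MMP9 and SLC26A11 are 8 of the 25679 gene symbols counted in MOLM13 cells, and they were selected on their mRNA levels, far higher with sh2, an shRNA against YTHDC1, than with sh1, the other. Their working label was osteoclast-like and foamy macrophage genes. MOLM13 is an established human acute myeloid leukemia line with a KMT2A fusion. The 9 polyadenylated RNA libraries comprised 3 labelled shCtrl (virus with a control shRNA), 3 labelled sh1 (YTHDC1 shRNA-1) and 3 labelled sh2 (YTHDC1 shRNA-2). All cells, controls included, went through the same spinoculation with polybrene at 10 ug/ml, 48 h of incubation and 48 h in puromycin at 3 ug/ml. They belong to 1 line, and the labels do not say whether the libraries of a group came from separate cultures, so the p-values cover only library-to-library variation, part or all of which may be technical.

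The levels with sh2 and with sh1 chose the genes. Every value that uses sh2 is therefore given for them as a description without a test. The comparison of sh1 with shCtrl was tested, with the reservation that low levels with sh1 helped to pick the genes. In bulk RNA, a change in the number of cells that hold a transcript and a change in its amount per cell cannot be told apart.

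Osteoclasts are macrophage-lineage cells that fuse, attach to bone through integrins and dissolve it by secreting acid and proteases; their formation needs the cytokine encoded by CSF1 and signals from the receptor RANK. Foamy macrophages are filled with lipid droplets after taking up lipoproteins. Both cell types are known for high levels of osteopontin (SPP1) and of the glycoprotein GPNMB, and tartrate-resistant acid phosphatase (ACP5) is the classic histochemical stain for osteoclasts. MITF and the related factors TFEB, TFE3 and TFEC bind E-box and M-box sequences, and in mouse osteoclasts Mitf is known to activate Acp5. YTHDC1, the shRNA target, is a nuclear reader of m6A in RNA.

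YTHDC1 itself held 132 ± 8.52 CPM (SD, n = 3) with shCtrl and 118 ± 15.5 with sh1, a difference that did not pass the test (-0.16 ± 1.36 as log2 fold change with its SE; adjusted p = 0.938 by edgeR, or 0.271 without sh2 replicate 1). With sh2 it stood at 0, 61.4 and 52.5 CPM in replicates 1 to 3, and without replicate 1 it was lower than with shCtrl (-1.23 ± 0.15, edgeR adjusted p = 2.2e-05). Counts over all genes ran from 26455628 in sh2 replicate 1 to 67558535. CPM is a gene's count relative to its library's total, after TMM scaling of that total. The library sh2 replicate 1 stood apart: its log2 CPM correlated at 0.908 and 0.906 across genes with the other sh2 libraries, against 0.993 between those, and 163 genes above 1 CPM in both of those had 0 counts in it. Its YTHDC1 value of 0 is therefore not taken as a measure of knockdown, and the part of knockdown in that value was not tested. The values of the 8 genes with sh2 against shCtrl are given with and without this library. Those of other genes are given without it where its omission changes a call or where a value is central. Markers of the myeloid line fit the label of the cells: FLT3, CD33, HOXA9 and PTPRC held 619, 49.2, 69.3 and 338 CPM with shCtrl.

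Promoters are shown because they let the genes that moved together be compared by sequence rather than by level alone. The RefSeq promoter table of build GRCh38.p14 (250 bases before to 50 after each annotated start) held SPP1, GPNMB, ACP5, KCP and SDS, that is 5 of the 8 genes. The counts themselves were made on hg19, so these positions are not those of the count table. Each window was searched on both strands for TCATGTG (M-box), CACGTG (E-box), TGANTCA (AP-1) and GAGGAAG (ETS factors); none of these motifs contains another. Of all 35116 promoters, 2.92% held the M-box, a share counted per window. Genes with several annotated starts had several windows, so a count of genes is not directly comparable with that share. GPNMB held the M-box. ACP5 had several annotated starts, and only a single window of these held the M-box. The following windows of GPNMB (chr7:23246525-23246824, plus strand), of the ACP5 start that holds it (chr19:11577596-11577895, minus strand) and of SPP1 (chr4:87975464-87975763, plus strand) are written 5′ to 3′ with every match to any of the 4 motifs in capitals.
GPNMB: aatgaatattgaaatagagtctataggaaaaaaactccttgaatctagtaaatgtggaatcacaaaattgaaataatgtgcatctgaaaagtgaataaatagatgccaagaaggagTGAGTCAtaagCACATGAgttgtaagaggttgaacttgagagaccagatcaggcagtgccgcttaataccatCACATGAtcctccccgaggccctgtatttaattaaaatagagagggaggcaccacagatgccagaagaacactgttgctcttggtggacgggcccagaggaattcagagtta
ACP5: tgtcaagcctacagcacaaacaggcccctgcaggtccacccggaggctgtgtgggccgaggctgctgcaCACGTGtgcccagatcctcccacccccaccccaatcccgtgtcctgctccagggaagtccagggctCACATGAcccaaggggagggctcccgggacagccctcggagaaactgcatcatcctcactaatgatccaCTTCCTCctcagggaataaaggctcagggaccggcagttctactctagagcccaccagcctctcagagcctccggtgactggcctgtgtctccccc
SPP1: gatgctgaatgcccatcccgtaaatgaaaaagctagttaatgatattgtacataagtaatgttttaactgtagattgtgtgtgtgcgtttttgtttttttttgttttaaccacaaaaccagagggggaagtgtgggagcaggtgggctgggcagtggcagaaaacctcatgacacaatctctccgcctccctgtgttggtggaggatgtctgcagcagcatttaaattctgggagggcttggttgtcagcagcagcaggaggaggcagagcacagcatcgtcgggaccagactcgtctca
In GPNMB the M-box occurred at 2 places on the opposite strand, with first bases 123 and 62 before the start, and the AP-1 sequence at 134 before it (7.71% of all promoters hold that one). The ACP5 window held the M-box 115 before the start, the E-box 181 before it (7.26% of all promoters) and the ETS sequence 46 before it on the opposite strand (13.6%). SDS held the ETS sequence, while the windows of SPP1 and KCP held none of the 4. A match describes the letters of the window and is not a measured binding site.

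Of the secreted proteins, SPP1 encodes osteopontin, which tethers cells to bone and matrix through integrins and CD44. SPP1 stood at 0.112, 0.142 and 0.135 CPM in shCtrl replicates 1 to 3, at 1.81, 0.987 and 1.03 with sh1 and at 90.2, 56.0 and 47.6 with sh2. The groups formed 3 separate steps: every sh1 library lay above every control, and every sh2 library far above those, an order that 8.30% of all tested genes showed. The mean with sh2 was 64.6 ± 22.6 CPM (SD, n = 3), with a log2 fold change against shCtrl of 8.93 ± 0.40 (SE), and 8.60 ± 0.29 without sh2 replicate 1.

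CSF1 encodes the growth factor on which macrophages and osteoclasts depend for survival. Its level was 0.239, 0.252 and 0.225 CPM with shCtrl, 0.218, 0.178 and 0.206 with sh1, and 21.6, 11.04 and 9.06 with sh2. The sh1 libraries all lay just below the controls, as in 24.2% of all tested genes. CSF1 thus had no intermediate step, and the sh2 libraries lay far above. Its log2 fold change was 5.84 ± 0.36 (SE) for sh2 against shCtrl (5.36 ± 0.24 without sh2 replicate 1) and 6.10 ± 0.37 for sh2 against sh1 (5.64 ± 0.25 without that library).

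MMP9 encodes a gelatinase that osteoclasts and macrophages secrete to cleave matrix. It was the scarcest of the 8, with 0, 2 and 1 counts in the controls, 2, 2 and 1 with sh1 and 43, 40 and 61 with sh2. In CPM the sh2 libraries held 1.36, 0.764 and 1.25. The ratio of summed, depth-scaled counts for sh2 over shCtrl was 69.6, with a 95% counting interval from 23.4 to 341.5, and that for sh2 over sh1 was 35.9 (15.0 to 112). Such intervals cover counting error alone, not the spread between libraries or the choice of the genes, and are no test. The fitted log2 fold change of MMP9 for sh2 against sh1 was 5.10 ± 0.51 (SE), and 4.96 ± 0.56 without sh2 replicate 1.

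KCP encodes a secreted protein with chordin-like repeats that modulates BMP and TGF-beta signalling in mouse. Its level was 0.0637, 0.0788 and 0.120 CPM with shCtrl, 0.218, 0.259 and 0.262 with sh1, and 18.1, 9.42 and 10.4 with sh2. The 3 groups did not overlap. The log2 fold change for sh2 against shCtrl was 7.13 ± 0.36 (SE), and 6.76 ± 0.29 without sh2 replicate 1.

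Among the proteins of membranes and lysosomes, GPNMB encodes a transmembrane glycoprotein of late endosomes and the cell surface. GPNMB had the highest control level of these genes in CPM, at 1.08, 0.961 and 0.932. It stood at 3.30, 1.70 and 2.06 CPM with sh1 and at 85.5, 54.7 and 52.6 with sh2, again in 3 separate steps. The log2 fold change for sh2 against shCtrl was 6.01 ± 0.31 (SE), and 5.74 ± 0.25 without sh2 replicate 1.

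ACP5 encodes tartrate-resistant acid phosphatase. It had 0.143, 0.205 and 0.210 CPM with shCtrl, 0.616, 0.469 and 0.318 with sh1, and 53.3, 27.9 and 23.4 with sh2. The groups did not overlap, and ACP5 ranked first of all 16746 tested genes by its log2 fold change for sh2 against sh1, 6.22 ± 0.39 (SE; 5.78 ± 0.25 without sh2 replicate 1). Against shCtrl the value with sh2 was 7.53 ± 0.42, and 7.07 ± 0.27 without sh2 replicate 1.

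SLC26A11 encodes an anion transporter of the SLC26 family. It had 0, 0 and 3 counts in the controls, which leaves its control level at the floor of detection, 24, 19 and 16 counts with sh1 and 466, 427 and 376 with sh2. In CPM the sh1 libraries held 0.477, 0.307 and 0.299 and the sh2 libraries 14.7, 8.16 and 7.69. Over the summed control counts, the ratio was 22.9 for sh1 (95% counting interval 7.46 to 114) and 614 for sh2 (209.5 to 2979). These intervals too cover counting error alone and are no test. The fitted log2 fold change of SLC26A11 for sh2 against sh1 was 4.81 ± 0.42 (SE), and 4.46 ± 0.35 without sh2 replicate 1.

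SDS encodes serine dehydratase, which turns serine into pyruvate and is best known from liver. Its level was 0.159, 0.205 and 0.165 CPM with shCtrl, 0.457, 0.469 and 0.150 with sh1, and 11.6, 7.34 and 5.97 with sh2. The third sh1 library lay below every control and the other sh1 libraries above, so those groups overlapped, while every sh2 library was higher than all others. The log2 fold change for sh2 against shCtrl was 5.53 ± 0.42 (SE), and 5.20 ± 0.37 without sh2 replicate 1.

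**Figure D1:**
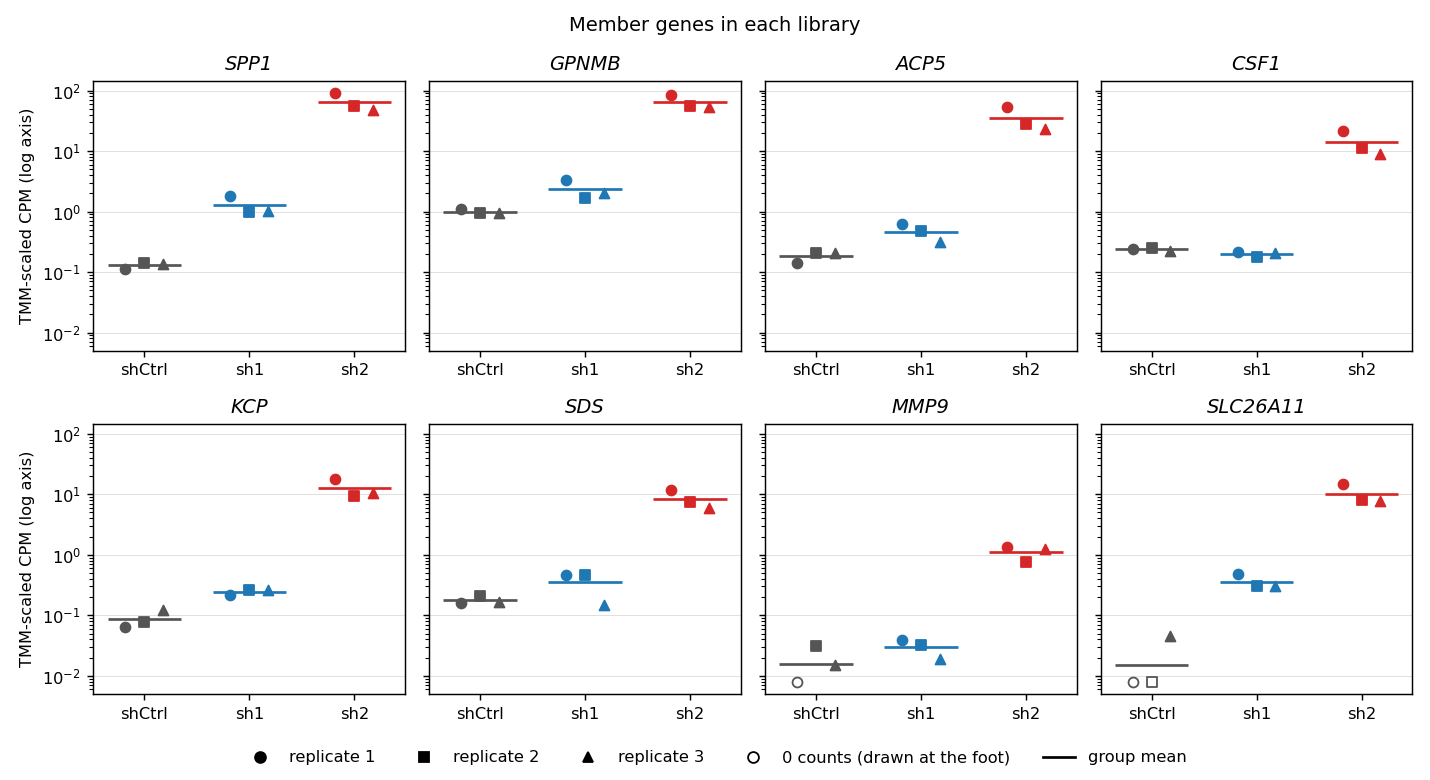
TMM-scaled CPM (log axis) of the 8 genes in each of the 9 libraries, by group; lines are group means and open symbols at the foot are libraries with 0 counts. The sh2 libraries sit above all others for each gene, from 0.764 CPM for MMP9 to 90.2 for SPP1, and sh2 replicate 1 is the highest of each panel.

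Set against all genes, the 8 were among the 18 of 16746 tested genes (0.107%) whose log2 fold change for sh2 against sh1 reached at least 4.51, the value of SDS. This rank follows from how they were chosen. The other 10, looked up after their values were seen, were HEY1, CCL4, CD163, FAM150A, APOE, LOC728637, CLEC7A and 3 rows of SNORD115 small nucleolar RNAs with identical values. Just outside the list of 8, CLEC7A, the beta-glucan receptor, had 4.61 and APOE 4.68, against 4.51 for SDS, the lowest inside it. For all 8 genes every sh2 library exceeded every shCtrl and sh1 library; over all tested genes 34.0% had all sh2 above all shCtrl libraries, 35.0% all below, and 21.5% all sh2 above all sh1 libraries. The mean with sh1 was from 1.34% (ACP5) to 4.32% (SDS) of the mean with sh2.

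With sh1 alone, 5 of the 8 genes rose against shCtrl and 3 did not pass the test, beside 20.4% of all tested genes that rose and 19.0% that fell in that comparison (39.4% in either direction). SPP1 rose 9.62-fold (3.27 ± 0.40 in log2 units, with its SE; adjusted p = 0.00022 by edgeR). SLC26A11 rose by 4.34 ± 0.73 (edgeR adjusted p = 0.00101), where the size rests on 3 control counts. GPNMB rose 2.36-fold (1.24 ± 0.28, edgeR adjusted p = 0.00628), KCP 2.76-fold (1.46 ± 0.42, edgeR adjusted p = 0.0169) and ACP5 2.48-fold (1.31 ± 0.45, edgeR adjusted p = 0.0441). In these 5 genes each sh1 library lay above each control, as in 25.7% of all tested genes. SDS had a log2 fold change of 1.02 ± 0.45 (edgeR adjusted p = 0.0948), MMP9 of 0.86 ± 0.89 (adjusted p = 0.48) and CSF1 of -0.25 ± 0.42 (adjusted p = 0.669).

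The calls of SPP1, GPNMB and SLC26A11 held in each of the 16 alternatives tried. The call of ACP5 was lost in 8 of these, including the omission of any 1 shCtrl or sh1 library (adjusted p up to 0.141), and that of KCP without shCtrl replicate 1 or 2 (adjusted p up to 0.0569), so the number of genes that rose ranged from 3 to 5. MMP9 passed the filter on low counts only through its sh2 libraries; the other 7 also passed on shCtrl and sh1 libraries alone.

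**Figure D2:**
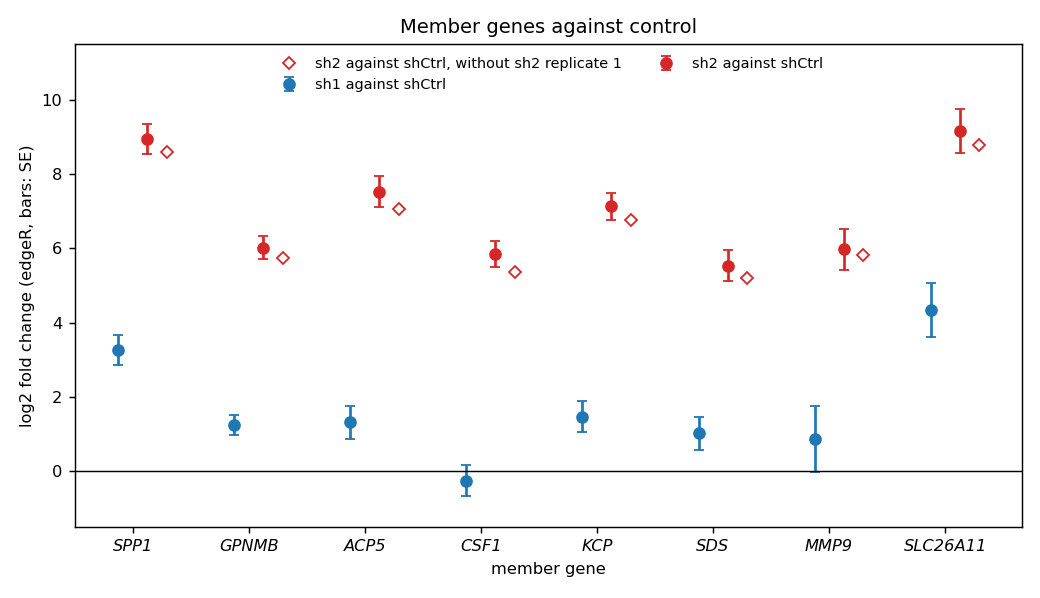
Log2 fold changes of the 8 genes against shCtrl from edgeR, with SE bars, for sh1 (blue) and sh2 (red); open diamonds leave out sh2 replicate 1. The sh1 values run from -0.25 (CSF1) to 4.34 (SLC26A11) and the sh2 values from 5.53 (SDS) to 9.16 (SLC26A11); the sh1 and sh2 values share the control libraries.

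Within the sh2 group all 8 genes were highest in sh2 replicate 1, the library that stood apart, where they held 1.35 (MMP9) to 2.15 (CSF1) times the mean of replicates 2 and 3, with a median of 1.78. The median over all tested genes was 1.01, and 53.5% of the tested genes had a ratio above 1. A ratio of at least the 1.35 of MMP9 was held by 8.87% of them. The share of genes highest in that library was not counted. Without that library the fold for sh2 over sh1 ran from 18.4 (SDS) to 54.9 (ACP5), against 22.8 to 74.4 with it. Between replicates 2 and 3 the genes did not share an order: KCP and MMP9 were higher in replicate 3 and the other 6 in replicate 2. What sets this library apart, and its part in these levels, was not tested.

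**Figure D3:**
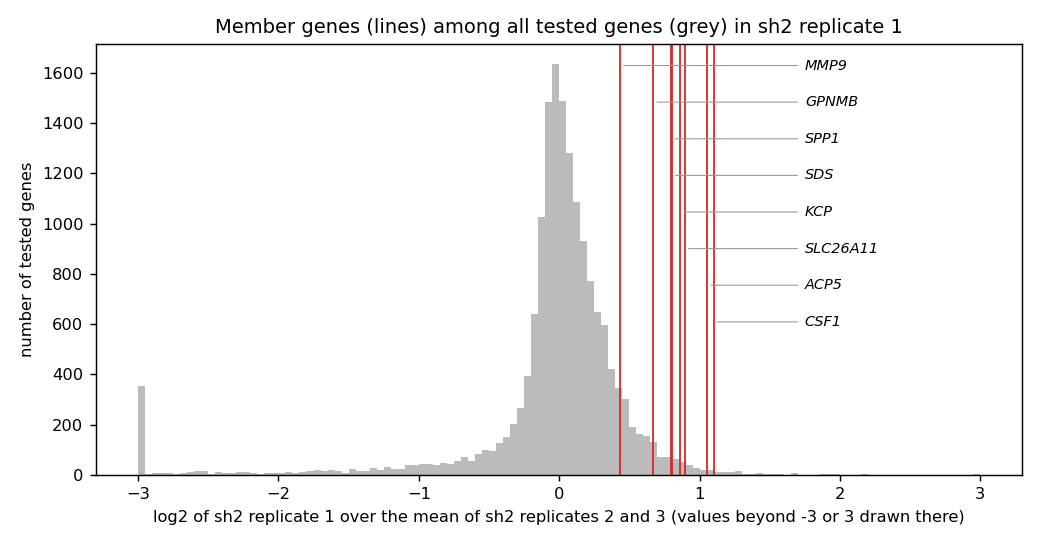
Number of tested genes by the log2 ratio of sh2 replicate 1 to the mean of sh2 replicates 2 and 3 (grey bars), with the 8 genes as red lines; genes with 0 counts in replicate 1 are not drawn, and ratios off the axis are drawn at its ends. The lines lie to the right of the bulk, between ratios of 1.35 and 2.15 before the log.

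Macrophage markers rose with both shRNAs. Of the 12 listed monocyte and macrophage markers, 8 rose and 0 fell with sh1 (20.4% of all tested genes rose and 19.0% fell, 39.4% either). All 12 rose with sh2 (27.5% of all tested genes rose and 27.4% fell, 54.9% either). Their median log2 fold changes were 1.44 with sh1 and 2.93 with sh2. Of the 12, 11 were higher with sh2 than with sh1 (15.5% of all tested genes were higher and 16.5% lower, 32.0% either). Their summed level ran from 186 to 202 CPM with shCtrl, from 332 to 442 with sh1 and from 613 to 768 with sh2. CD163, a scavenger receptor of macrophages, rose with sh2 from 0.0833 to 7.71 CPM on average (log2 fold change 6.49, edgeR adjusted p = 8.84e-08), but CD14 and MRC1, which mark mature monocytes and macrophages, averaged 0.629 and 0.290 CPM with sh2. The part of this shift in the levels of the 8 genes was not tested. The markers of other cell types were scarce: summed erythroid and megakaryocyte markers did not exceed 1.13 CPM and epithelial markers 7.40 CPM in any library, and PF4 was at 0 throughout. Osteoblast and stromal markers summed to 29.9 to 34.01 CPM with shCtrl and 21.9 to 23.9 with sh2, most of it RUNX2; IBSP and ALPL, which mark osteoblasts, had at most 0.0305 CPM in any group mean. Lymphocyte markers summed to 14.0 to 16.2 CPM with shCtrl and 24.0 to 34.8 with sh2, nearly all from NKG7, while CD2 and CD3E had at most 0.0341 CPM in any group mean.

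Genes of osteoclast differentiation largely rose. Of 22 listed, 19 were tested; 13 rose with sh1 and 16 with sh2, while OCSTAMP fell with sh2. Their median log2 fold change was 0.46 with sh1 and 1.37 with sh2, beside 0.02 and -0.02 over all tested genes. Over all tested genes 20.4% rose with sh1 and 27.5% with sh2. TREM2, a lipid receptor that signals through TYROBP, rose from 1.51 ± 0.47 CPM to 14.4 ± 6.71 with sh1 and 30.4 ± 9.78 with sh2 (SD, n = 3; log2 fold change with sh2 4.33, edgeR adjusted p = 0.000116; 4.02 without sh2 replicate 1). TYROBP, its adaptor, rose by 2.50 with sh1 and 3.54 with sh2 (edgeR adjusted p = 3.09e-06 and 6.59e-08).

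TNFRSF11A, which encodes RANK, rose with sh2 (1.74, edgeR adjusted p = 0.0003) and had 0.14 with sh1 (adjusted p = 0.739); the difference between sh2 and sh1 passed (1.60, adjusted p = 0.00132). DCSTAMP, which osteoclasts need to fuse, rose from 0.276 ± 0.0551 to 1.73 ± 0.393 CPM with sh2 (2.63, edgeR adjusted p = 2.11e-05) and stood at 0.196 ± 0.0439 with sh1. OCSTAMP, another gene of fusion, went the other way with sh2 (-0.56, edgeR adjusted p = 0.0422), a call lost in 7 of 16 alternatives. NFATC1, the master transcription factor of osteoclasts, rose by 0.62 with sh2 (adjusted p = 0.0051) and had 0.32 with sh1 (adjusted p = 0.12). TNFSF11, CALCR and SIGLEC15 were too low to be tested. Between sh2 and sh1, 7 of the 19 genes were higher and 12 did not pass, beside 15.5% of all tested genes that were higher. With library totals alone 12 of the 19 were higher, and by DESeq2 11.

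The bone resorption genes gave a mixed picture. Of 18 listed, 17 were tested. With sh1 9 rose, and with sh2 10 rose and 1 fell (median log2 fold changes 0.56 and 0.63), beside 20.4% of all tested genes that rose with sh1 and 27.5% with sh2. PLEKHM1 had 6.29 CPM in sh2 replicate 1 and 37.9 and 41.7 in the others. Without that library PLEKHM1 rose with both shRNAs (0.56 and 1.00, edgeR adjusted p = 0.0124 and 0.000371). ACP2 then fell with both (-0.55 and -0.60, adjusted p = 0.0299 and 0.0291), and the rise of ITGAV with sh2 was lost (adjusted p = 0.111). CTSK, the collagen-cleaving cathepsin of osteoclasts, rose from 4.005 ± 0.512 to 8.93 ± 3.23 CPM with sh1 and 12.0 ± 0.323 with sh2 (log2 fold changes 1.16 and 1.58, edgeR adjusted p = 0.002015 and 0.000142). SNX10 and OSTM1, both needed for acid secretion, rose by 1.76 and 1.67 with sh2, and the kinase gene SRC by 2.27 (edgeR adjusted p = 2.82e-05, 6.845e-06 and 1.28e-06). With sh1 SNX10, OSTM1 and SRC rose too, by 1.69, 1.00 and 1.16 (edgeR adjusted p = 9.15e-05, 0.000537 and 0.000343). Between sh2 and sh1 OSTM1 and SRC were higher (0.67 and 1.11, adjusted p = 0.00715 and 0.00055), while SNX10 had 0.07 (adjusted p = 0.805).

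CA2, the carbonic anhydrase that supplies protons to the osteoclast, stood at 23.6, 16.0 and 14.8 CPM with shCtrl, 74.05, 66.3 and 50.3 with sh1 and 2.40, 2.48 and 1.66 with sh2. It rose with sh1 (1.81, edgeR adjusted p = 0.000138) and fell by 3.06 with sh2 (edgeR adjusted p = 2.76e-06). The 3 groups of CA2 did not overlap. All sh1 libraries lay above all controls in 25.7% of all tested genes, and all sh2 libraries below them in 35.0%. The share with both was not counted. ATP6V0D2, a proton pump subunit of osteoclasts, was too low to be tested, with 0 counts in each control, 1, 5 and 5 with sh1 and 12, 11 and 5 with sh2. CALCR, the calcitonin receptor that marks mature osteoclasts, had at most 3 counts in any library. The genes that define osteoclasts thus did not all move 1 way with sh2, since CA2 fell, so the 8 genes are called by their names here.

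**Figure D4:**
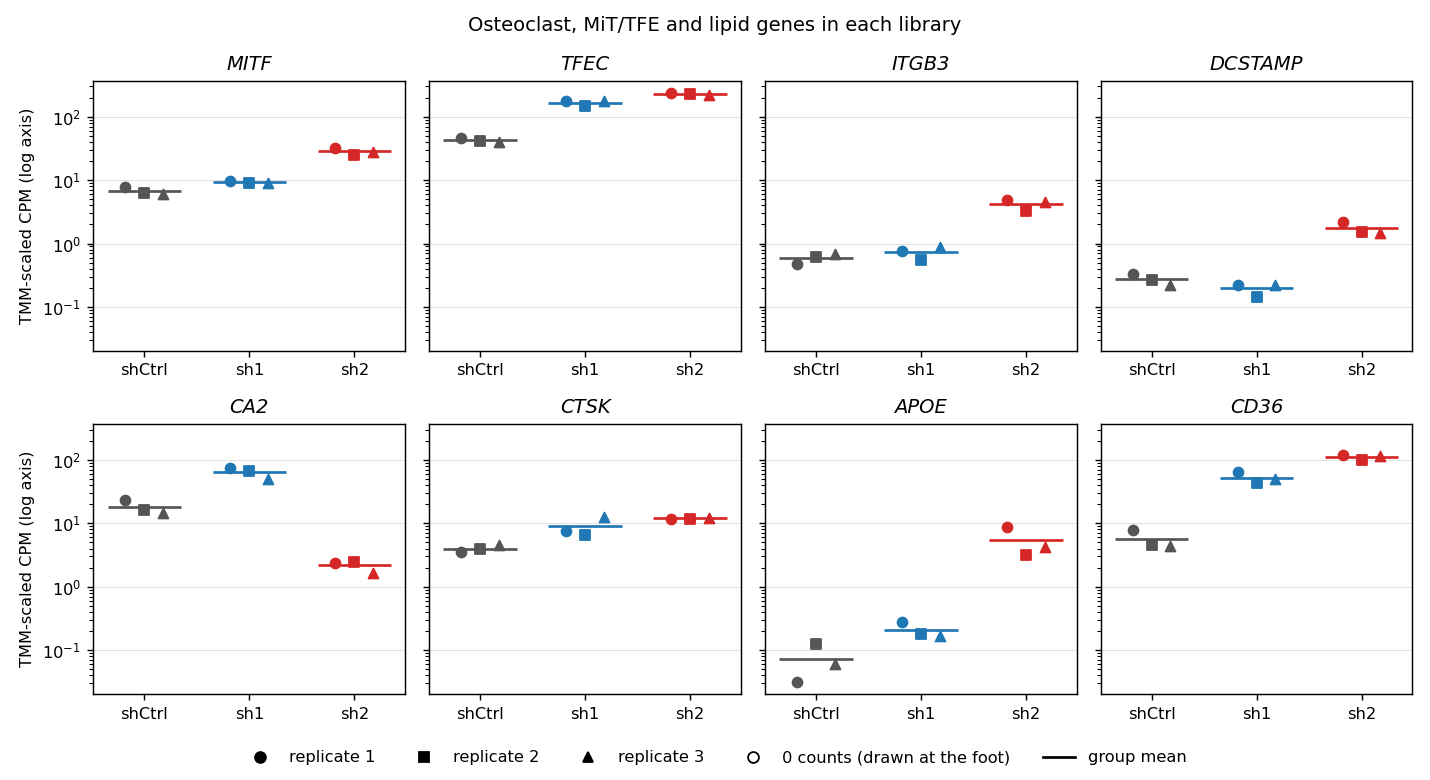
TMM-scaled CPM (log axis) of MITF, TFEC, ITGB3, DCSTAMP, CA2, CTSK, APOE and CD36 in each of the 9 libraries, with group means as lines. ITGB3, DCSTAMP and APOE are low with shCtrl and sh1 and high with sh2, CTSK, TFEC and CD36 are raised in both shRNA groups, and CA2 is highest with sh1 and lowest with sh2.

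Most lipid genes of foamy macrophages rose. Of 25 listed, 22 were tested. With sh1 13 rose and 1 fell (median log2 fold change 0.83), and with sh2 20 rose and 1 fell (median 2.60). Between sh2 and sh1 14 were higher (median 1.05, beside -0.03 over all tested genes). Among all tested genes 20.4% rose with sh1, 27.5% rose with sh2 and 15.5% were higher with sh2 than with sh1. OLR1 and CD36, receptors for oxidized lipoprotein, rose by 5.44 and 3.22 with sh1 (edgeR adjusted p = 0.000664 and 1.69e-05) and by 7.83 and 4.31 with sh2 (2.99e-05 and 1.002e-06; 7.39 and 4.23 without sh2 replicate 1). PPARG, the nuclear receptor of lipid storage, rose by 3.39 with sh1 and 3.37 with sh2 (edgeR adjusted p = 6.91e-05 and 2.9e-05).

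APOE, the lipid carrier, stood at 0.0319, 0.126 and 0.0601 CPM with shCtrl, 0.278, 0.178 and 0.168 with sh1, and 8.85, 3.13 and 4.19 with sh2. Like the 8 genes it was highest in sh2 replicate 1. It rose with sh2 (6.16, edgeR adjusted p = 4.61e-06; 5.59 without sh2 replicate 1), was higher with sh2 than with sh1 (4.68, adjusted p = 5.24e-05) and had 1.48 with sh1 (adjusted p = 0.0907, or 0.0292 without sh2 replicate 1). FABP5, a fatty acid binding protein, fell with both (-0.55 and -0.54, edgeR adjusted p = 0.0195 and 0.0149); both calls were lost without shCtrl replicate 1, and that with sh1 also without sh1 replicate 3. LPL, FABP4 and ABCG1 were too low to be tested.

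Among the receptors to which osteopontin and GPNMB bind, 8 of 10 listed were tested. With sh1 4 rose and with sh2 6, or 4 with sh2 without sh2 replicate 1 (median log2 fold changes 0.34 and 0.45). This stood beside 20.4% of all tested genes that rose with sh1 and 27.5% with sh2. CD44, the hyaluronan receptor, rose from 169 ± 13.3 to 219 ± 16.6 CPM with sh1 and 230.4 ± 12.2 with sh2 (0.38 and 0.45, edgeR adjusted p = 0.014 and 0.00328), though the sh2 call was lost with another transcript row and the sh1 call without shCtrl replicate 2. ITGAV rose by 0.46 with sh1 (edgeR adjusted p = 0.00408) and by 0.28 with sh2 (adjusted p = 0.0336, lost in 7 of 16 alternatives). ITGB3, which joins ITGAV in the main osteoclast integrin, rose 7.09-fold with sh2, from 0.59 ± 0.101 to 4.21 ± 0.815 CPM (2.83, edgeR adjusted p = 5.25e-06). With sh1 ITGB3 stood at 0.735 ± 0.168 CPM (0.31, adjusted p = 0.387), and its difference between sh2 and sh1 passed (2.52, adjusted p = 4.34e-05). ITGA9 rose by 2.16 (lost without shCtrl replicate 2) and 2.96 from 0.0459 CPM, ITGA5 by 0.58 with sh1 and ITGB1 by 0.58 with sh2 (edgeR adjusted p = 0.0121, 0.000917, 0.00246 and 0.00737). SDC4 had 0.45 with sh2 (adjusted p = 0.0472, lost in 7 of 16 alternatives).

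CSF1R, the receptor of the CSF1 protein, rose with both shRNAs, unlike its ligand: from 4.78 ± 0.42 CPM to 22.3 ± 4.17 with sh1 and 19.0 ± 3.95 with sh2 (log2 fold changes 2.23 and 1.99, edgeR adjusted p = 9e-06 and 5.34e-06; sh2 against sh1 -0.23, adjusted p = 0.345). IL34, the other ligand of that receptor, had at most 5 counts in any library. Of the 7 colony-stimulating factor genes listed 4 were tested, of which 3 rose with sh1; CSF3R and CSF2RB, receptor chains of other such factors, rose by 0.76 and 0.63 (edgeR adjusted p = 0.00188 and 0.0064). The fourth, CSF2RA, had 0 counts in sh2 replicate 1, and without that library it rose by 0.43 with sh1 and 1.06 with sh2 (edgeR adjusted p = 0.0179 and 5.07e-05). With sh2 1 rose, CSF1R (2 genes without TMM, without sh2 replicate 1 or with the compared groups alone), and the medians of the 4 were 0.69 and 0.40. The shares of all tested genes that rose were 20.4% with sh1 and 27.5% with sh2.

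Of 23 other matrix metalloproteinases and inhibitors, 9 were expressed enough to be tested. With sh1 4 rose, and with sh2 3 rose and 1 fell (medians 0.35 and 0.28). Beside them, 20.4% of all tested genes rose with sh1, and 27.5% rose and 27.4% fell with sh2. In this list 5 rose with sh2 when the compared groups alone were fitted, without the filter on low counts or without sh1 replicate 2. MMP19 rose by 1.52 and 2.06 (edgeR adjusted p = 0.000399 and 2.27e-05). TIMP2, an inhibitor of these proteases, rose from 7.997 ± 1.34 to 20.6 ± 1.86 and 31.9 ± 6.11 CPM (1.37 and 1.99, edgeR adjusted p = 0.000105 and 2.87e-06). TIMP1, which binds MMP9, had 0.35 and 0.02 (adjusted p = 0.163 and 0.932). MMP24 rose by 0.66 and 0.63 (edgeR adjusted p = 0.0226 and 0.021), calls lost without shCtrl replicate 1 or 2, without sh1 replicate 2 for sh1 and without sh2 replicate 1 or 2 for sh2. MMP2, another gelatinase, rose by 0.77 with sh1 (edgeR adjusted p = 0.0066) and had -0.54 with sh2 (adjusted p = 0.0317, lost in 4 of 16 alternatives).

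All 4 MiT/TFE factor genes rose with sh2 and 3 with sh1, and all 4 were higher with sh2 than with sh1 (median log2 fold changes 1.68, 0.64 and 0.79). The matching shares of all tested genes were 27.5%, 20.4% and 15.5%. MITF stood at 6.72 ± 1.003 CPM with shCtrl, 9.20 ± 0.513 with sh1 and 28.5 ± 3.24 with sh2 (SD, n = 3). It rose by 2.08 with sh2 (edgeR adjusted p = 5.7e-07; 1.97 without sh2 replicate 1) and by 0.45 with sh1 (adjusted p = 0.0239, lost in 5 of 16 alternatives). TFEC, the most myeloid-restricted of the family, rose by 1.96 and 2.43 (edgeR adjusted p = 1.01e-06 and 3.95e-08). TFE3 rose by 0.82 and 1.28 (edgeR adjusted p = 0.000386 and 7.3e-06), and TFEB by 0.75 with sh2 (adjusted p = 0.0101) after -0.36 with sh1 (adjusted p = 0.2). The higher level of TFE3 with sh2 than with sh1 was lost without sh2 replicate 1 or 3 (adjusted p up to 0.0645).

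Of 22 listed genes of the BMP pathway, on which KCP acts, 17 were tested. With sh1 4 rose and 3 fell, shares near those of all tested genes (20.4% and 19.0%), and with sh2 3 rose and 8 fell, beside 27.5% and 27.4% of all tested genes (median log2 fold changes -0.17 and -0.33). Between sh2 and sh1 1 was higher and 6 lower (beside 15.5% and 16.5% of all tested genes), or 3 lower without sh2 replicate 1 and 2 lower without TMM. The receptor genes ACVR1 and ACVRL1 rose by 1.53 and 1.57 with sh2 (edgeR adjusted p = 1.04e-05 and 5.19e-05) and by 1.16 and 1.30 with sh1 (0.000168 and 0.000394). SMAD7, an inhibitor of the pathway, rose by 0.55 and 1.42 (edgeR adjusted p = 0.00973 and 9.62e-06), and the receptor gene BMPR2 by 0.64 with sh1 (adjusted p = 0.000949). The receptor gene BMPR1A went the other way with both shRNAs. It had -0.41 with sh1 (edgeR adjusted p = 0.0179, lost in 2 of 16 alternatives) and -0.82 with sh2 (adjusted p = 0.000154). BMP2, a ligand, fell from 9.31 ± 0.253 to 2.83 ± 0.208 CPM with sh2 (-1.72, edgeR adjusted p = 1.59e-06), NOG, an antagonist, fell by 1.21 and 1.63 (adjusted p = 0.000974 and 8.24e-05), and ID3, a target gene, by 1.80 with sh2 (adjusted p = 0.0129, lost without sh2 replicate 2).

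Among 12 genes of serine use and synthesis, 3 rose and 7 fell with each shRNA (median log2 fold changes -0.74 and -0.93). In comparison, 20.4% of all tested genes rose and 19.0% fell with sh1, and 27.5% rose and 27.4% fell with sh2. PHGDH, which makes serine, and CBS, which consumes it, fell by 2.96 and 3.32 with sh1 and by 3.14 and 2.79 with sh2 (edgeR adjusted p = 3.82e-06, 7.35e-07, 6.01e-07 and 1.89e-07). SDSL, a relative of SDS and its neighbour in the RefSeq gene order, rose from 0.742 ± 0.0813 to 2.92 ± 1.12 CPM with sh2 (1.96, edgeR adjusted p = 0.00133) and had 1.05 with sh1 (adjusted p = 0.0498, lost in 10 of 16 alternatives). SERINC1 and SERINC3, named for a proposed role in serine incorporation, rose by 0.56 with sh2 and 0.51 with sh1 (edgeR adjusted p = 0.000661 and 0.00157), and SPTLC1, of sphingolipid synthesis, by 0.41 with sh1 (adjusted p = 0.019, lost in 3 of 16 alternatives). SERINC3 also rose by 0.29 with sh2 (edgeR adjusted p = 0.0241, lost in 6 of 16 alternatives).

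Of the 10 other SLC26 genes listed 8 were tested; 2 rose with sh1, and 3 rose and 1 fell with sh2 (medians 0.24 and 0.40), beside 20.4% of all tested genes that rose with sh1 and 27.5% with sh2. SLC26A8 rose by 1.43 and 1.71 (edgeR adjusted p = 0.00271 and 0.000497), SLC26A7 by 1.84 with sh2 (adjusted p = 0.000196) and SLC26A2 by 0.73 with sh1 (adjusted p = 0.000648). With sh2 SLC26A2 rose by 0.38 (edgeR adjusted p = 0.0167, lost in 5 of 16 alternatives). SLC26A4 had -0.92 with sh2 (adjusted p = 0.0185, lost in 4 of 16 alternatives).

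**Figure D5:**
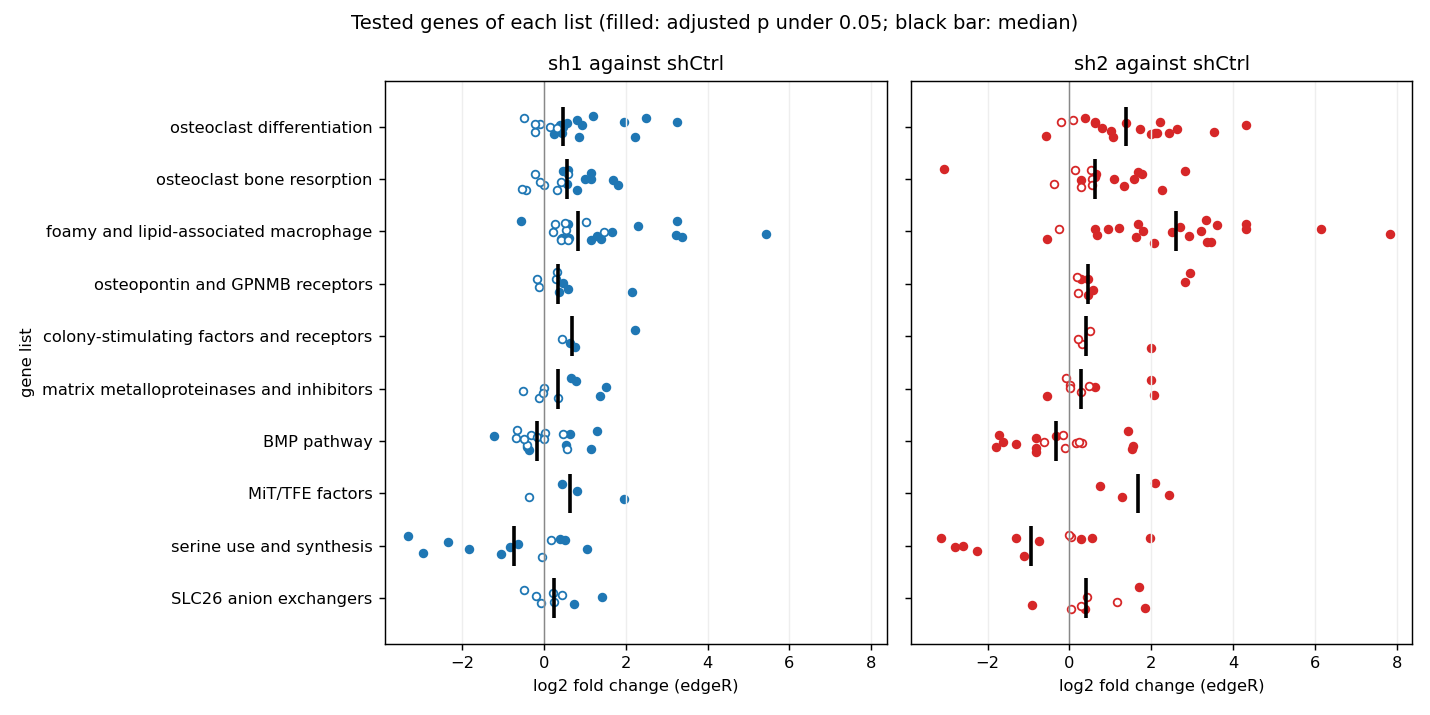
Log2 fold changes against shCtrl of the tested genes of each list, for sh1 (left) and sh2 (right); filled points passed an adjusted p of 0.05 and black bars are medians. Of the 10 lists drawn, the lipid list has the highest median with sh2, 2.60 of 22 genes, and the serine list the lowest, -0.93 of 12; the marker lists are not drawn.

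The 8 genes lay on 7 chromosomes; GPNMB and KCP were both on chromosome 7. Of 14 tested genes that flank them in the RefSeq gene order, 2 rose and 2 fell with sh1, and 7 rose and 2 fell with sh2, beside 20.4% and 19.0% of all tested genes with sh1 and 27.5% and 27.4% with sh2. The pair that fell with sh2 was MALSU1, next to GPNMB, by 0.70 and AHCYL1, next to CSF1, by 0.76 (edgeR adjusted p = 0.000691 and 6.62e-05). SGSH, which encodes a lysosomal sulfatase and lies beside SLC26A11, had 0, 1 and 0 counts with shCtrl, 2, 8 and 0 with sh1 and 22, 12 and 10 with sh2. Over the single control count its ratio was 63.8 for sh2, with a 95% counting interval from 10.9 to 2577. IRF5, next to KCP, rose by 0.54 and 0.65 (edgeR adjusted p = 0.00954 and 0.00214), and ATP6V1F, on its other side, by 1.31 with sh2 (adjusted p = 0.000345). MEPE, the bone matrix gene beside SPP1, averaged at most 0.0672 CPM in any group, while PKD2 on the other side rose by 0.84 with sh2 (edgeR adjusted p = 0.00762). How reads of adjacent or overlapping genes were assigned, and whether strand was used, is not given in the sources used here.

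Transcript rows of the same gene gave almost the same counts for SPP1, GPNMB, ACP5 and SLC26A11: each further row held at least 98.1% of the kept row with sh2. In CSF1 the 3 further rows held 79.9%, 68.1% and 59.1% of the kept row with sh2, against 82.6%, 71.7% and 63.0% with shCtrl, where the kept row had 46 counts in all. The further row of KCP held 61.9% with sh2 and 70.6% with shCtrl, of 17 counts. SDS and MMP9 had 1 row each.

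The genes most like the 8 in pattern were found by correlating log2 CPM over the 9 libraries with the mean of their standardised profiles, among 13699 other genes of at least 1 CPM with sh2. These coefficients describe a likeness of 3 group levels and carry no test, since the libraries share groups and depth. ZNF366 (r = 0.997), PDE4B (0.996), A2M (0.996), C5orf20 (0.995), CXCL16 (0.995), DKK2 (0.995), PLIN2 (0.994), ADORA2B (0.994), IL4R (0.994) and DUSP4 (0.993) were the 10 highest. Such values were not rare: 33 genes exceeded 0.99 and 984 exceeded 0.9. PLIN2, which coats lipid droplets, stood at 13.6 ± 1.3, 18.3 ± 3.27 and 77.2 ± 8.23 CPM with shCtrl, sh1 and sh2. A2M, a protease trap of plasma, stood at 2.94 ± 0.71, 5.93 ± 1.6 and 107.0 ± 30.3. Among the 8, which enter that mean themselves, the correlation with it ran from 0.972 for SLC26A11 to 0.999 for ACP5.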

How the data were processed

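The authors deposited 1 table of raw counts per RefSeq transcript, whole numbers with a column per library. The submitters' processing notes name STAR, DESeq and the build hg19; their versions and roles, the counting program, strand use and multi-mapped reads are not stated there. Per the labels' protocols, 1 ug of RNA entered a stranded mRNA kit. The table held 48104 rows; 78 of 80 symbols that had become dates were restored by transcript identifier and 2 rows were left out. The row with the highest total was kept per symbol, and 0 per-sample columns were unused.

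From these counts, edgeR 4.0.16 (R 4.3.3) was run with filterByExpr (16746 genes kept), TMM and robust quasi-likelihood F-tests, 1 mean per group over 9 libraries, with Benjamini-Hochberg adjustment over all tested genes and a threshold of 0.05. SE are log2 fold changes over the root of F. CPM divide counts by the TMM-scaled library size. Totals of 26455628 to 67558535 counts put 3 counts at 0.0444 to 0.113 CPM before TMM; counting intervals (exact, 95%) and floors cover counting error only, since reads had no molecular identifiers. The steps were run on simulated counts. No outcome of that run is reported, and it is not used as evidence for genes with control levels as low as the 0.0155 CPM of MMP9. Libraries of a group were compared for duplicates, and each of the 9 pairs differed by more than counting error (19.8 to 289 as chi-square per gene).

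The 8 genes and the gene lists were chosen with earlier results of these data known. Genes named are the 8, a fixed set of partners, the largest changes of each list (up to 4 rises and 2 falls with each shRNA) and the 10 most alike in pattern; neighbouring genes were added later. The lists were osteoclast differentiation, bone resorption, foamy and lipid-associated macrophage, receptors of osteopontin and GPNMB, colony-stimulating factors, metalloproteinases, BMP pathway, MiT/TFE factors, serine use and SLC26 genes, plus markers of the line and of other cell types. Alternatives were DESeq2 1.42.0, library totals without TMM, no filter, the compared groups alone, each library left out, a replicate block, another transcript row and RNA45S5 removed.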

Additional observations from a re-analysis of the deposited data

Results flagged for a closer look

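4 listed genes moved in opposite directions with the YTHDC1 shRNAs, each change past the test against shCtrl, and differed between sh2 and sh1 by the test of that difference. Of all tested genes, 39.4% passed with sh1 and 54.9% with sh2 in either direction. How many of all tested genes moved in opposite directions was not counted. For CA2, carbonic anhydrase 2, 3 of 3 sh1 libraries lay above every control (as in 25.7% of all tested genes) and 3 of 3 sh2 libraries below (35.0%). Its log2 fold change of sh2 against sh1 was -4.87 (edgeR adjusted p = 1.92e-06). Over the 16 alternatives it ran from -5.01 to -4.67 and kept its call. For MMP2 the value was -1.31 (edgeR adjusted p = 0.00044), from -1.40 to -1.12 over the alternatives, while its fall with sh2 against shCtrl was lost in 4 of them. MPO, the myeloperoxidase of granules, stood at 98.6 ± 32.0 CPM with shCtrl, 290 ± 57.7 with sh1 and 40.9 ± 10.7 with sh2 (SD, n = 3), and its log2 fold change of sh2 against sh1 was -2.83 (edgeR adjusted p = 0.000183). LUM, a matrix proteoglycan listed as a stromal marker, went the other way: it stood at 0.563 ± 0.219, 0.232 ± 0.0425 and 1.03 ± 0.206 CPM, with a value of 2.15 for sh2 against sh1 (edgeR adjusted p = 0.00093). Its controls overlapped the sh2 libraries, and these levels are low.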

How the results depend on the processing

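Over 16 alternatives, none of the compared log2 fold changes of the 8 genes and of the named genes that passed changed direction; MMP9 with sh1 could not be fitted with the compared groups alone. Of the 8, 5 rose with sh1 in the main comparison and 3 without shCtrl replicate 1 or 2, with 3 to 5 over the libraries left out. Genes lower with sh2 than with sh1 numbered 2767, but 1236 with library totals without TMM, a scaling that moved the median log2 fold change of all genes from -0.03 to 0.15, and 1842 to 3203 with a library left out. The share of calls that were higher went from 48.4% to 71.5% under that scaling for sh2 against sh1, and from 50.1% to 62.2% for sh2 against shCtrl. Listed genes lower with sh2 than with sh1 numbered 14, but 9 with the compared groups alone, 5 without TMM and 9 to 16 with a library left out. Whether the replicate numbers pair the samples was not settled. Deviations correlated above 0.1 in 2 of 9 same-numbered pairs (-0.0876 to 0.568) and in 2 of 18 other pairs (-0.515 to 0.262). Both same-numbered pairs above 0.1 were between shCtrl and sh1 (0.568 for replicate 1 and 0.214 for replicate 3). With replicate number as a block, 5 of the 8 genes rose with sh1, and 3392 genes rose and 3181 fell, against 3419 and 3174 without it. The values of MMP9 and SLC26A11 against shCtrl rest on 3 control counts each: without shCtrl replicate 3 the fitted log2 fold change of SLC26A11 with sh2 was 12.07, and without shCtrl replicate 2 that of MMP9 was 6.79. For MMP9 with sh1, 5 summed counts against 3 in the controls allow a ratio from 0.377 to 12.5 (95% counting interval).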

Other observations

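Markers of the leukemic line did not move in 1 direction. LYZ, the lysozyme of myeloid cells, rose from 186 CPM with shCtrl to 2556 with sh1 and 2648 with sh2 (edgeR adjusted p = 0.000147 and 5.94e-05). FLT3, a growth factor receptor of progenitors, and MEIS1, a stem cell factor, fell by 1.17 and 1.40 on the log2 scale with sh2 (edgeR adjusted p = 1.02e-05 and 1.27e-05). Among the genes taken as stromal markers, DCN, a matrix proteoglycan, rose from 0.0103 to 0.422 CPM with sh2 (log2 fold change 5.03, edgeR adjusted p = 5.18e-05), while BGLAP, which encodes osteocalcin, fell from 1.15 to 0.453 CPM (-1.36, adjusted p = 0.00555).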
